A study of Homo sapiens with 11 samples.

Results

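The genes described here are BEST1, TAC1, LINC00624, CADPS2, PIK3C2B, KCNK2 and ARHGAP24, 7 of the 38021 genes in the deposited count table. They belong to no common pathway and were picked because their levels changed in HEK293T cells under the compound AA132, at 10 or 30 µM, against vehicle or against the compound AA147. The values of those conditions chose the genes, so differences between them are given as descriptions, with no test. Tests were read only where the choice had not used the contrast: the dose relation over the other AA132 doses, the response to thapsigargin, and, for 4 of the genes, the response to AA147.

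HEK293T is an established human embryonic kidney line, here labelled wild type. Cells were treated for 6 h with vehicle (0.1% DMSO), with thapsigargin (Tg) at 500 nM, with AA147 at 10 µM, or with AA132 at 0.1, 0.3, 1, 3, 6, 10, 15 or 30 µM, and total RNA was sequenced. Each of the 11 conditions is labelled as 1 sample, but the table gives it 3 numbered columns, taken here as replicate libraries. Nothing says that they came from separate cultures, so the p-values measure only the spread between these libraries, which may be technical, and every condition is 1 cell line. Because RNA was taken from whole cultures, a change in RNA per cell and a change in the share of cells that make it cannot be told apart.

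Thapsigargin inhibits SERCA, the pump that fills the endoplasmic reticulum (ER) with calcium. Loss of ER calcium disturbs protein folding and sets off the unfolded protein response, in which sensors in the ER membrane raise chaperone genes such as HSPA5 and stress transcription factors such as DDIT3. AA147 and AA132 are small molecules known to activate this response. Oxidative stress acts through a separate route, the NRF2 pathway, whose targets include HMOX1 and TXNRD1.  BEST1 encodes a calcium-activated chloride channel best known from the retinal pigment epithelium, KCNK2 a mechanosensitive potassium channel (TREK-1), TAC1 the precursor of substance P and neurokinin A, and CADPS2 a protein that primes dense-core vesicles for release. PIK3C2B encodes a class II phosphoinositide 3-kinase, ARHGAP24 a GTPase-activating protein for Rac (FilGAP), and LINC00624 a long non-coding RNA.

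Library totals ran from 36358793 to 37958306 counts, apart from AA132 10 µM library 3 at 32265437. Within conditions, pairs of libraries gave a chi-square per degree of freedom of 4.48 to 59.4 (median 7.56), above what counting noise alone would give. Vehicle library 1, AA132 10 µM library 1 and AA147 library 1 stood apart from the other 2 libraries of their conditions, and results that rest on them are given with and without them. In 2 further libraries the stress genes were out of line with the labelled dose. In the library labelled AA132 1 µM library 1, HSPA5 held 1660 CPM, where the other 1 µM libraries held 1028 and 1093, and HMOX1 held 39.8, where they held 11.5 and 12.1. In the library labelled AA132 3 µM library 3, HSPA5 held 1042 CPM, where the others held 1921 and 1969, and HMOX1 held 14.2, where they held 49.3 and 43.9. In both genes, each of these 2 libraries lay nearer to the other libraries of the other's dose than to those of its own. Whether they were exchanged was not tested. Both are kept under their labels, in the dose relation, and the first also in the low-dose baseline. Leaving out both, a step chosen after seeing the data, changed calls among the 7 genes only for LINC00624 under Tg (given with that gene). All 8 HEK293T marker genes were detected in every library (PAX2, the lowest, at 0.407 to 1.53 CPM, counts scaled to library size). Of the markers of other cells, CD14 (0.250 to 1.83 CPM) and COL1A1 (19.7 to 49.9 CPM) were detected in every library, while PTPRC and COL1A2 had at most 2 counts. The retinal pigment epithelium marker RPE65, listed because of BEST1, reached at most 0.277 CPM, and RLBP1 had 1 count in 1 library.

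RefSeq promoter sequences (GRCh38.p14) were at hand for 4 of the 7 genes. The 250 bases before the annotated start are printed for TAC1 (chr7:97731836-97732085, plus strand) and PIK3C2B (chr1:204494806-204495055, minus strand), the 2 of these 4 genes that were called in the dose relation and under Tg, TAC1 higher and PIK3C2B lower in both. They read 5′ to 3′ along the gene. Capitals mark CCACG, the half-site of the ER stress response element, found on either strand and so printed as CGTGG where it lies on the other strand.
TAC1: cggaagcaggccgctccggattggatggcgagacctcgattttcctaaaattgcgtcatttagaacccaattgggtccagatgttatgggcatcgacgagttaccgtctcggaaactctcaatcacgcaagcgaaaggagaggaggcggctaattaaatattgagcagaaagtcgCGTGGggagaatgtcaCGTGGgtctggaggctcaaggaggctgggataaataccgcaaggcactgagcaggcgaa
PIK3C2B: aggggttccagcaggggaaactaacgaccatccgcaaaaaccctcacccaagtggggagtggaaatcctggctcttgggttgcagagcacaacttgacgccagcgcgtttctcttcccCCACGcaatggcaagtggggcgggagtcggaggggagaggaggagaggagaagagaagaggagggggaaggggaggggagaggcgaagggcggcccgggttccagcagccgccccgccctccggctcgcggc
The TAC1 stretch held CCACG at 2 places, at -75 and -59, counted back from the last base shown as -1. PIK3C2B held it at 1 place, at -132. It was also in 1 of the 2 windows of KCNK2, at -31, and in 1 of the 2 windows of ARHGAP24, at -141, so all 4 genes with an entry held it, ARHGAP24 among them, which passed no test. Of 35116 RefSeq promoter windows of the same length, 33.5% held CCACG on either strand and 9.39% held it 2 or more times. These shares are per window, not per gene. TAC1 also held the E-box CACGTG at -61, which overlaps the CCACG at -59 and is found in 6.34% of windows, and the CRE half-site TGACG, on the other strand, at -197. TGACG was found in PIK3C2B at -156 and in 21.2% of all windows. GCGTG, the core of the aryl hydrocarbon receptor site, was in TAC1 at -127 and -76, PIK3C2B at -131, KCNK2 at -32 and 32.2% of windows. TGACNNNGC, the core of the antioxidant response element, was in KCNK2 at -166, ARHGAP24 at -212 and 10.9% of windows. The full ER stress response element, searched by its standard consensus on both strands, was in none of the 6 windows of these 4 genes. A match describes letters in the window only.

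**Figure D1:**
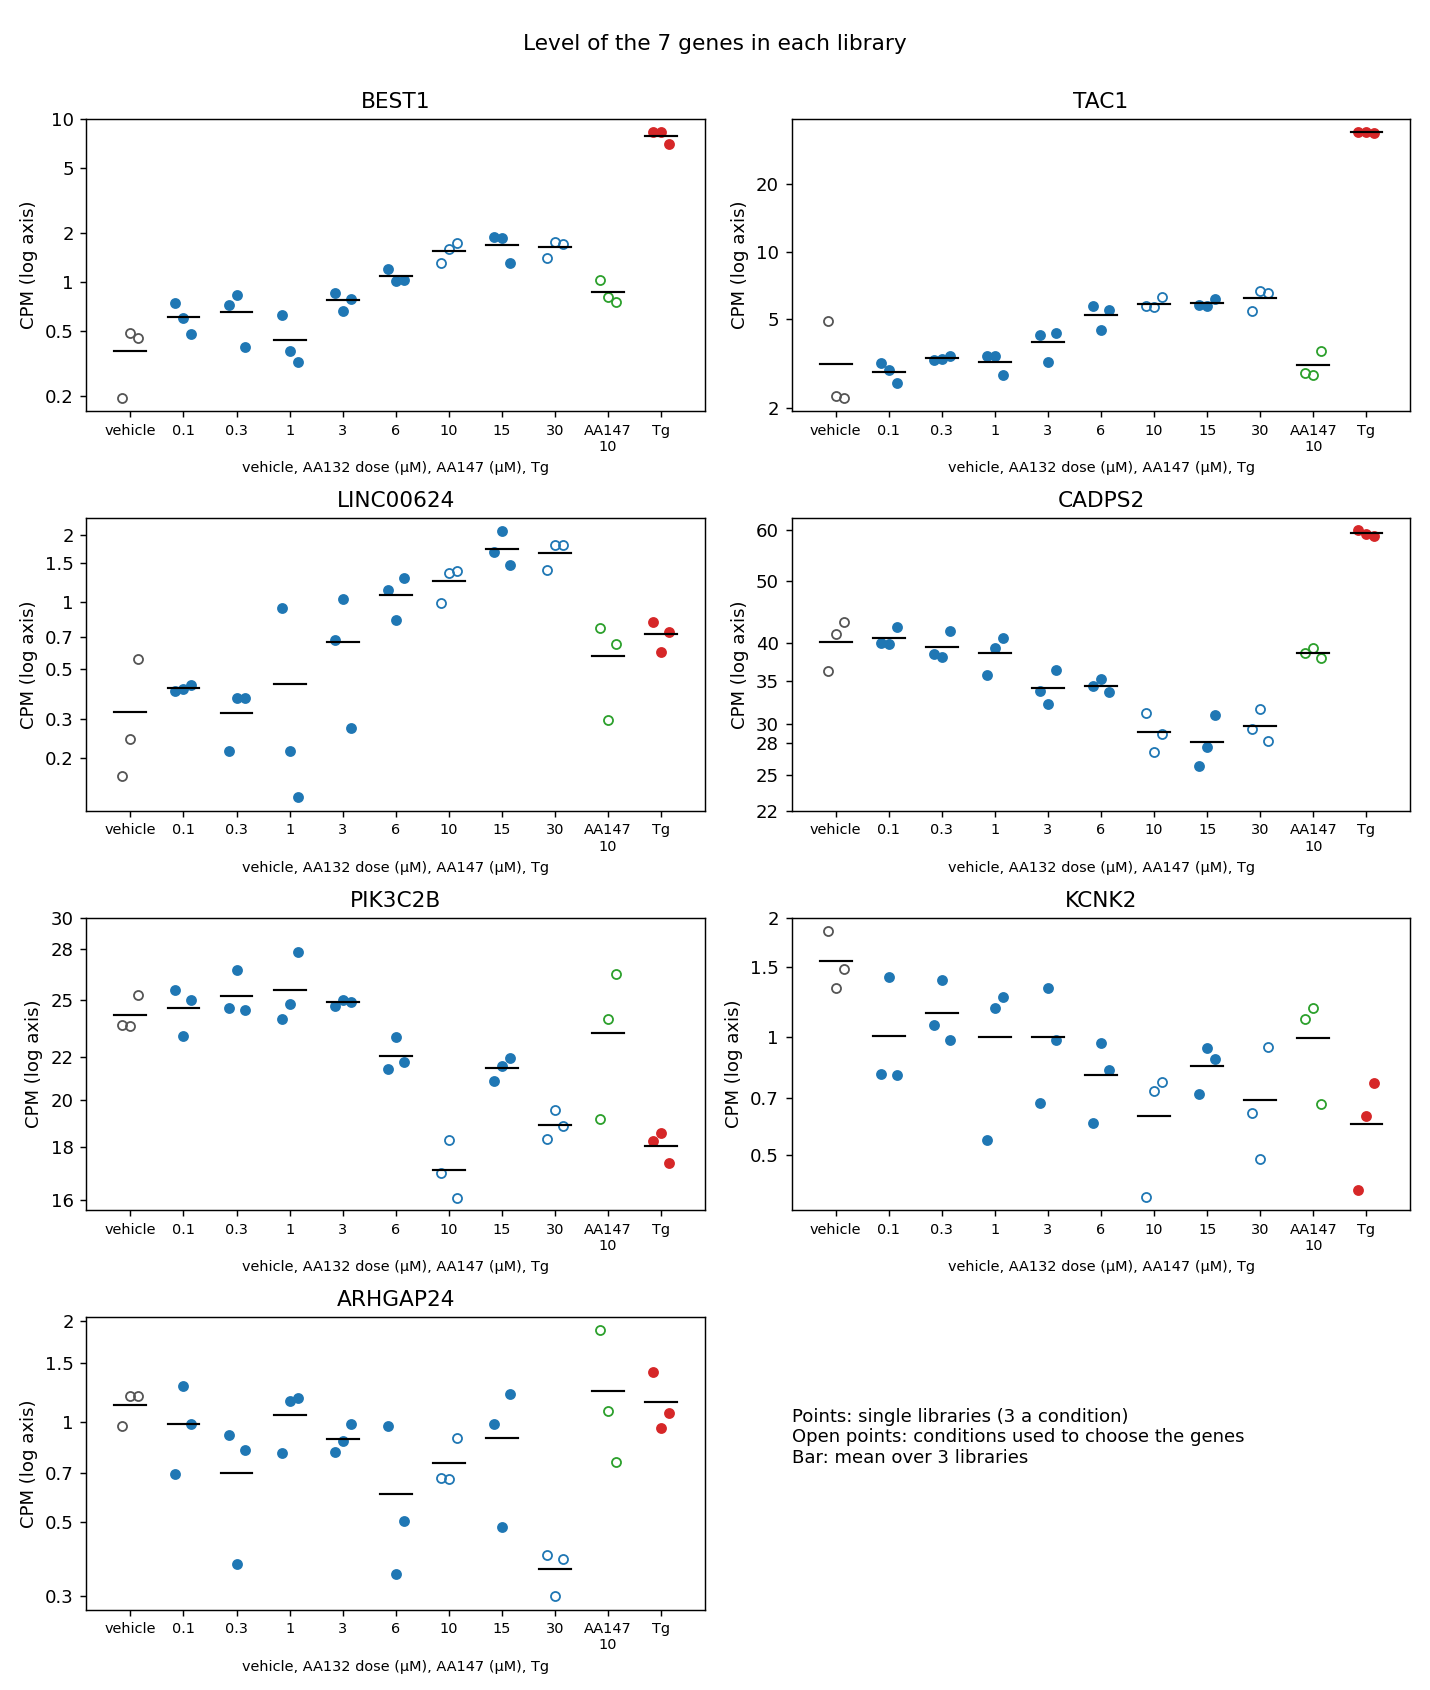
Level of each of the 7 genes in CPM (log axis) in every library, by condition: vehicle, AA132 by dose in µM, AA147 at 10 µM and Tg. Each point is 1 library, and bars are means over 3 libraries. Open points mark conditions that chose at least some of the genes. AA147 entered the choice only of TAC1, CADPS2 and PIK3C2B, but is drawn open for all 7. BEST1, TAC1 and LINC00624 climb with AA132 dose, CADPS2 and PIK3C2B decline, and Tg libraries lie above all others for BEST1, TAC1 and CADPS2.

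Dose relations were fitted over AA132 at 0.1, 0.3, 1, 3, 6 and 15 µM, as a slope in log2 units per 10-fold dose. These 18 libraries lie outside the contrasts that chose the genes. BEST1, TAC1 and LINC00624 rose with dose and CADPS2 and PIK3C2B fell, 5 of 7 genes called at an adjusted p under 0.05 (edgeR quasi-likelihood test, Benjamini-Hochberg over 16824 genes), where 10.8% of all genes tested were called. That background splits into 6.18% higher and 4.61% lower. The genes were chosen for change at 10 or 30 µM of the same compound, and 15 µM lies between these doses. The share of the 7 genes called, the p-values of their slopes and their ranks are thus partly set by the choice. Without the 15 µM dose, BEST1 (edgeR adjusted p = 0.174) and PIK3C2B (edgeR adjusted p = 0.412) no longer passed, while TAC1, LINC00624 and CADPS2 did. The median slope of the 7 genes was -0.09, against -0.00039 over all genes, since the list mixes both directions.

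Under Tg against vehicle, BEST1, TAC1 and CADPS2 rose and PIK3C2B and KCNK2 fell, 5 of 7, beside 31.2% of the 17793 genes tested (16.2% higher, 15% lower). The vehicle libraries also entered the choice of the genes, and their mean was the lowest of the 11 conditions for BEST1 and the highest for KCNK2. Values against vehicle can thus be partly set by the choice. Tg was therefore compared as well with the mean of AA132 at 0.1, 0.3 and 1 µM, 9 libraries outside the contrasts that chose the genes. BEST1, TAC1 and CADPS2 again passed higher and PIK3C2B and KCNK2 lower, beside 38.4% of all genes (19.9% higher, 18.5% lower). The median change of the 7 genes was 0.56 against vehicle and 0.58 against the low doses, with 0.0048 and 0.0027 over all genes. Both comparisons share the 3 Tg libraries.

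**Figure D2:**
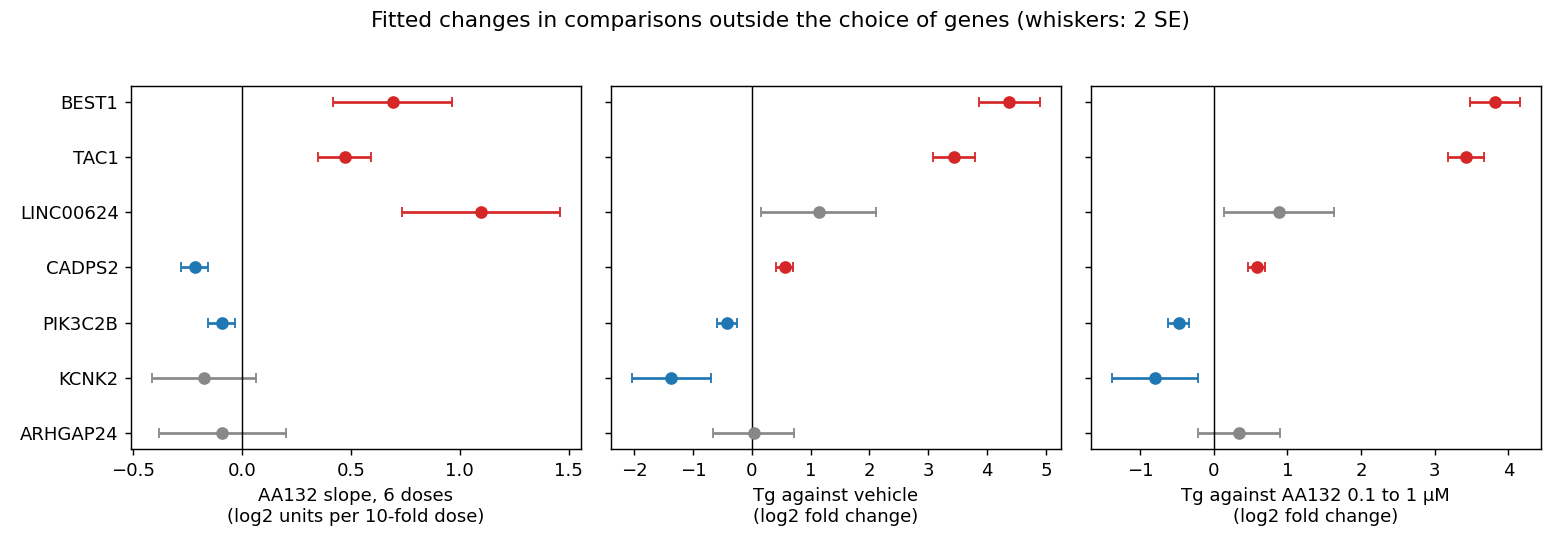
Fitted values of the 7 genes: slope over 6 AA132 doses (log2 units per 10-fold dose), Tg against vehicle, and Tg against AA132 0.1 to 1 µM (log2 fold change); points are estimates, whiskers 2 standard errors, red higher and blue lower at adjusted p under 0.05, grey not called. CADPS2 is blue in the dose panel at -0.22 and red in both Tg panels at 0.56 and 0.58, while the intervals of ARHGAP24 span 0 in all 3.

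BEST1 (ENSG00000167995.17, chr11:61950063-61965515, plus strand, GRCh38, 15.5 kb and 11 exons in its main transcript) rose with AA132 and rose far more under Tg. Vehicle libraries held 0.194, 0.489 and 0.451 CPM, from 7, 18 and 17 counts. AA132 libraries held 0.749, 0.600 and 0.479 CPM at 0.1 µM, 0.725, 0.828 and 0.398 at 0.3 µM, 0.625, 0.377 and 0.321 at 1 µM, and 0.862, 0.663 and 0.792 at 3 µM. The 3 lowest doses overlapped one another, and 3 µM overlapped 0.1 and 0.3 µM. From 6 µM on, every library lay above every library of the lower doses: 1.21, 1.02 and 1.04 CPM at 6 µM, 1.31, 1.59 and 1.73 at 10 µM, 1.88, 1.88 and 1.32 at 15 µM, and 1.41, 1.77 and 1.72 at 30 µM. The top 3 doses did not differ beyond their spread. Tg libraries held 8.36, 8.35 and 7.11 CPM (261 to 308 counts), above every other library. AA147 libraries held 1.03, 0.807 and 0.757 CPM, above all vehicle libraries and overlapping AA132 at 3 and 6 µM.

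The BEST1 slope was 0.69 (SE 0.14, edgeR adjusted p = 0.00105), which ranked 21 from the highest of 16824 genes. Without the 15 µM dose it was 0.42 and no longer passed (edgeR adjusted p = 0.174). Tg against vehicle gave a log2 change of 4.38 (SE 0.26, edgeR adjusted p = 3.69e-15), rank 15 from the highest of 17793, and 4.06 without the 3 libraries that stood apart. Vehicle entered the choice of BEST1, so this value and its rank can be partly set by the choice. Against the low AA132 doses the Tg change was 3.82 (SE 0.17, edgeR adjusted p = 5.30e-19). BEST1 shares 1267 exon bases, 14.6% of its own, with FTH1 (ferritin heavy chain) on the opposite strand, and the use of strand in counting is not given in the sources used here. FTH1 held 89.6 to 151 CPM over all libraries. Its slope was 0.11 (edgeR adjusted p = 0.0143) and its Tg change 0.20 (edgeR adjusted p = 0.101). In CPM, FTH1 held 101 ± 16.2 (SD, n = 3) in vehicle, 139 ± 13.2 at AA132 30 µM and 116 ± 4.94 under Tg. The share of BEST1 counts that come from FTH1 was not tested.

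TAC1 (chr7:97732084-97740472, plus strand, 8.39 kb, 7 exons) also rose with AA132 dose and rose most under Tg. Vehicle libraries 2 and 3 held 2.28 and 2.23 CPM, while vehicle library 1 held 4.93 CPM (178 counts against 84 in each of the others). AA132 libraries held 3.18, 2.97 and 2.61 CPM at 0.1 µM, 3.30, 3.31 and 3.43 at 0.3 µM, 3.43, 3.44 and 2.81 at 1 µM, and 4.26, 3.24 and 4.34 at 3 µM. They held 5.73, 4.45 and 5.50 CPM at 6 µM, 5.70, 5.64 and 6.29 at 10 µM, 5.78, 5.74 and 6.13 at 15 µM, and 5.46, 6.70 and 6.55 at 30 µM. The lowest library at 6 µM lay above the highest at 3 µM, and from 6 µM on each dose overlapped the next one up. Tg libraries held 34.2, 34.2 and 33.8 CPM (1242 to 1259 counts), the highest of all conditions by a wide margin. AA147 libraries, at 2.89, 2.82 and 3.62 CPM, overlapped those of the low AA132 doses.

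The TAC1 slope was 0.47 (SE 0.06, edgeR adjusted p = 3.08e-06), and it passed under every alternative tried. Tg against vehicle was 3.44 (SE 0.18, edgeR adjusted p = 1.07e-16), and 3.91 without the libraries that stood apart, since vehicle library 1 is high. Against the low doses, which do not include it, the change was 3.43 (SE 0.12, edgeR adjusted p = 1.56e-21). Among genes in the count table, the nearest beyond the end of TAC1 was ASNS (asparagine synthetase, a target of the integrated stress response). It lies 111 kb away on the opposite strand. ASNS rose from 187 ± 13.1 CPM (SD, n = 3) in vehicle to 309 ± 15.2 at AA132 30 µM and 697 ± 24.2 under Tg. Its slope was 0.20 (edgeR adjusted p = 9.81e-05) and its Tg change 1.90 (edgeR adjusted p = 2.79e-20). On the other side SDHAF3, 550 kb away, passed neither test (edgeR adjusted p = 0.0734 and 0.0744).

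LINC00624 (chr1:147258885-147517875, minus strand, 259 kb, 6 exons) had the steepest slope of the 7 genes and, unlike BEST1 and TAC1, was highest under AA132 and not under Tg. Vehicle libraries held 0.166, 0.244 and 0.557 CPM (6, 9 and 21 counts). AA132 libraries held 0.401, 0.409 and 0.426 CPM at 0.1 µM, 0.215, 0.374 and 0.372 at 0.3 µM, 0.937, 0.215 and 0.134 at 1 µM, and 0.679, 1.03 and 0.273 at 3 µM. The spread was wide at 1 and 3 µM, on 5 to 39 counts a library, and the libraries apart there, 1 µM library 1 and 3 µM library 3, were those out of line in HSPA5 and HMOX1 too. At 6 µM the libraries held 1.13, 0.832 and 1.27 CPM, at 10 µM 0.994, 1.35 and 1.37, at 15 µM 1.67, 2.07 and 1.46, and at 30 µM 1.39, 1.80 and 1.80. Every library from 10 µM on lay above every vehicle library. Tg libraries, at 0.815, 0.600 and 0.735 CPM (30, 22 and 27 counts), lay below all libraries of 6 µM and above. At 6 µM the gap was small, since library 2 there held 0.832 CPM from 31 counts. AA147 libraries held 0.768, 0.296 and 0.649 CPM.

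The LINC00624 slope was 1.10 (SE 0.18, edgeR adjusted p = 0.000114), rank 6 from the highest of 16824, and it passed in every alternative. Tg against vehicle was 1.14 (SE 0.49) and did not pass (edgeR adjusted p = 0.0761), nor did Tg against the low doses at 0.89 (SE 0.37, edgeR adjusted p = 0.0579). Both calls sit at the threshold: DESeq2 gave adjusted p = 0.0466 and 0.0377, and edgeR without the filter on low counts gave 0.0228 and 0.0148. Leaving out vehicle library 3 moved the Tg change to 1.78 (edgeR adjusted p = 0.0190), and leaving out AA132 1 µM library 1 moved the low-dose comparison to 1.32 (edgeR adjusted p = 0.00181). Without the 3 libraries that stood apart, Tg against vehicle was 0.82 (edgeR adjusted p = 0.233) and Tg against the low doses 0.89 (edgeR adjusted p = 0.0413). Without the 2 libraries out of line with their dose, both passed, at 1.14 (edgeR adjusted p = 0.0175) and 1.32 (edgeR adjusted p = 0.000669), and the slope was 1.14 (edgeR adjusted p = 1.50e-05). LINC00624 shares 210 exon bases, 3.77% of its own, with CHD1L on the opposite strand. CHD1L held 116 to 154 CPM and had a slope of -0.06 (edgeR adjusted p = 0.0268). The part of CHD1L reads in LINC00624 was not tested.

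CADPS2 (chr7:122318411-122886759, minus strand, 568 kb, 30 exons) moved in opposite directions under the stressors. Vehicle libraries held 36.2, 41.4 and 43.1 CPM, and AA132 libraries 40.03, 39.96 and 42.4 at 0.1 µM, 38.4, 38.1 and 41.8 at 0.3 µM, and 35.7, 39.3 and 40.8 at 1 µM. They then fell to 33.8, 32.2 and 36.4 CPM at 3 µM, 34.3, 35.2 and 33.6 at 6 µM, 31.2, 27.1 and 29.0 at 10 µM, 25.8, 27.6 and 31.0 at 15 µM, and 29.5, 31.6 and 28.2 at 30 µM. Every library from 10 µM on lay below every library of 6 µM and under. Tg libraries held 59.9, 59.1 and 58.7 CPM, above every other library, and AA147 libraries held 38.7, 39.3 and 37.9. The slope was -0.22 (SE 0.03, edgeR adjusted p = 1.16e-05). Tg against vehicle was 0.56 (SE 0.07, edgeR adjusted p = 3.79e-07), or 0.48 without the libraries that stood apart, and Tg against the low doses was 0.58 (SE 0.06, edgeR adjusted p = 8.38e-10). Both the dose relation and the Tg comparisons passed under every alternative tried, in opposite directions.

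PIK3C2B (chr1:204422628-204494805, minus strand, 72.2 kb, 33 exons) was lower under Tg and at the higher AA132 doses. Vehicle libraries held 23.6, 23.6 and 25.2 CPM, and the 12 libraries from AA132 0.1 to 3 µM held 23.0 to 27.8. At 6 µM they held 21.4, 23.0 and 21.8 CPM, at 10 µM 17.0, 18.3 and 16.1, at 15 µM 20.9, 21.6 and 21.9, and at 30 µM 18.3, 19.6 and 18.9. The 10 µM libraries, which entered the choice, lay below all of 15 µM, so the level did not decline evenly with dose. AA147 libraries held 19.2, 23.9 and 26.5 CPM, library 1 below all libraries of AA132 15 µM. Tg libraries held 18.2, 18.6 and 17.4 CPM. The slope was -0.09 (SE 0.03, edgeR adjusted p = 0.0389), and it did not pass in 8 of 18 fits that left out 1 library (edgeR adjusted p = 0.0527 to 0.105), nor without the 15 µM dose (-0.06, edgeR adjusted p = 0.412). Tg against vehicle gave -0.42 (SE 0.09, edgeR adjusted p = 0.000249) and against the low doses -0.47 (SE 0.07, edgeR adjusted p = 2.07e-06).

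KCNK2 (chr1:215005775-215237090, plus strand, 231 kb, 7 exons) had its highest mean in vehicle, at 1.86, 1.33 and 1.48 CPM (49 to 67 counts). AA132 libraries spanned 0.546 to 1.42 CPM at 0.1 to 3 µM and 0.392 to 0.966 CPM at 6 to 30 µM, and the pooled ranges overlapped. All libraries of 0.3 µM (0.983 to 1.39 CPM) lay above all of 6, 10, 15 and 30 µM, while those of 1 and 3 µM overlapped the higher doses. AA147 libraries held 1.11, 1.18 and 0.676 CPM. Tg libraries held 0.407, 0.628 and 0.762 CPM (15 to 28 counts). The slope of -0.18 (SE 0.12) did not pass (edgeR adjusted p = 0.388). Tg against vehicle was -1.37 (SE 0.34, edgeR adjusted p = 0.00175), or -1.23 without the libraries that stood apart. Vehicle entered the choice of KCNK2, so this value and its p can be partly set by the choice. Against the low doses the Tg change was -0.80 (SE 0.29, edgeR adjusted p = 0.0281). That call was lost without Tg library 1 (edgeR adjusted p = 0.179), Tg library 2 (0.0693) or AA132 0.1 µM library 2 (0.0562).

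ARHGAP24 (chr4:85475150-86002668, plus strand, 528 kb, 10 exons) had its lowest mean at AA132 30 µM, with 0.400, 0.300 and 0.388 CPM (15, 11 and 14 counts), where 0.3 and 6 µM overlapped it. Vehicle libraries held 0.970, 1.19 and 1.19 CPM, and libraries of the other AA132 doses spanned 0.349 to 1.28 CPM, with no order by dose. The slope of -0.09 (SE 0.15, edgeR adjusted p = 0.752) and the Tg changes of 0.03 (SE 0.34, edgeR adjusted p = 0.961) and 0.35 (SE 0.28, edgeR adjusted p = 0.352) did not pass. The interval of 2 SE for Tg against vehicle ran from -0.65 to 0.71. ARHGAP24 shares 999 exon bases, 12.7% of its own, with MAPK10 on the opposite strand, which held 0 to 0.489 CPM, and the part of MAPK10 reads was not tested.

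At AA132 30 µM minus vehicle, which chose several of the genes, the log2 difference was 2.10 for BEST1, 2.35 for LINC00624, 0.99 for TAC1, -0.35 for PIK3C2B, -0.43 for CADPS2, -1.17 for KCNK2 and -1.62 for ARHGAP24 (SE 0.08 to 0.46). Without the libraries that stood apart these were 1.79, 2.04, 1.47, -0.37, -0.50, -1.02 and -1.71, so that TAC1 moved most, its vehicle library 1 being high. These are descriptions.

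At the single dose both compounds share, 10 µM, AA132 minus AA147 is a description, since 3 of the genes were chosen on it. In log2 units it was 0.92 for TAC1 (SE 0.18), 0.83 for BEST1 (SE 0.25) and 1.11 for LINC00624 (SE 0.43), and -0.41 for CADPS2 (SE 0.08), -0.44 for PIK3C2B (SE 0.09), -0.66 for KCNK2 (SE 0.35) and -0.73 for ARHGAP24 (SE 0.35). AA147 library 1 and AA132 10 µM library 1 are among those that stood apart. Without all 3 such libraries, KCNK2 moved to -0.31 and ARHGAP24 to -0.23, while TAC1 stayed at 0.89, CADPS2 at -0.46 and PIK3C2B at -0.55, and LINC00624 and BEST1 were 1.52 and 1.08. All 7 kept their sign, but KCNK2 and ARHGAP24 came to less than 1 SE. ARHGAP24 was high in AA147 library 1, at 1.88 CPM, where the other AA147 libraries held 1.08 and 0.757.

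AA147 against the low AA132 doses was a test for the 4 genes whose choice did not use AA147, and none passed, beside 0.0393% of 17793 genes called (7 genes, all higher; 1503 genes had an unadjusted p under 0.05). The change was 0.63 for BEST1 (interval 0.18 to 1.07, edgeR adjusted p = 0.382), 0.57 for LINC00624 (-0.21 to 1.34, edgeR adjusted p = 0.728), 0.46 for ARHGAP24 (-0.09 to 1.01, edgeR adjusted p = 0.683) and -0.08 for KCNK2 (-0.61 to 0.45, edgeR adjusted p = 0.965). The BEST1 interval lay above 0 but the adjusted p missed the threshold, which does not show that AA147 left the gene alone. Without the 3 libraries that stood apart, the values were 0.48, 0.29, 0.03 and -0.17. Without the 2 libraries out of line with their dose they were 0.74, 1.00, 0.41 and -0.18, and none passed, with 0.171% of all genes called.

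**Figure D3:**
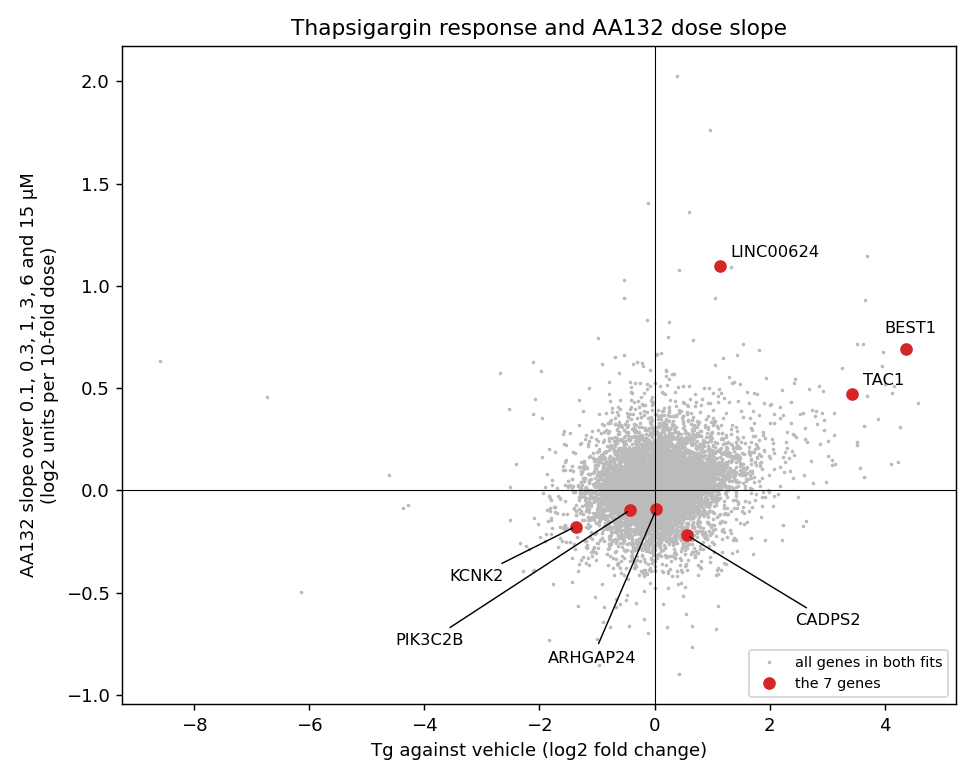
Each gene in both fits (grey) by Tg against vehicle (log2 fold change, horizontal) and AA132 slope over 6 doses (log2 units per 10-fold dose, vertical), with the 7 genes in red. BEST1 and TAC1 lie high on both axes, LINC00624 higher on the dose axis and at 1.14 on the Tg axis, CADPS2 right of 0 and below 0, and KCNK2 left of 0; the genes were chosen for change under AA132, so the vertical position is partly set by the choice.

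Set beside HSPA5 and HMOX1, 2 of the stress genes listed, the risers split by Tg. Over the 11 condition means in log2 CPM, Pearson r of BEST1 and TAC1 with HSPA5 was 0.979 and 0.974, and with HMOX1 0.451 and 0.273. For LINC00624 the order was the reverse, 0.579 with HSPA5 and 0.966 with HMOX1. Like HMOX1, the oxidative genes GCLM, TXNRD1, SRXN1, NQO1, FTH1, FTL and OSGIN1 had a higher r with LINC00624 than with BEST1 or TAC1. SLC7A11, listed with them, went the other way, at 0.954 for BEST1, 0.874 for TAC1 and 0.777 for LINC00624. HSPA5 held 11023 CPM under Tg against 2636 at AA132 30 µM, while HMOX1 held 25.5 under Tg against 201 at AA132 30 µM, so the 2 stress genes differ most at the Tg point, 1 of the 11. Over the 8 AA132 doses alone, r of all 3 genes with HSPA5 and HMOX1 was 0.928 to 0.984. The heat shock gene HSPA1A was about as close, at 0.943 for BEST1, 0.966 for TAC1 and 0.981 for LINC00624. Over dose, the likeness was thus not particular to HSPA5 and HMOX1. These means include conditions that chose the genes. Over the 6 doses that did not, r with HSPA5 and HMOX1 was 0.902 and 0.918 for BEST1, 0.990 and 0.971 for TAC1, and 0.956 and 0.978 for LINC00624. The r values over 11, 8 and 6 means share libraries. The conditions have a similar depth and the doses an order, and no p is given. Genes most like LINC00624 over the 11 conditions were TXNRD1 (thioredoxin reductase, r = 0.989), TMEM57 and SLC1A3; those most like TAC1 were CRELD2 (an ER protein, r = 0.996), TRIM27 and SRPRB; those most like BEST1 were IFRD1 (r = 0.986), SURF4 and CANX. TXNRD1 held 248 ± 32.5 CPM in vehicle, 445 ± 27.8 at AA132 30 µM and 321 ± 3.66 under Tg.

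**Figure D4:**
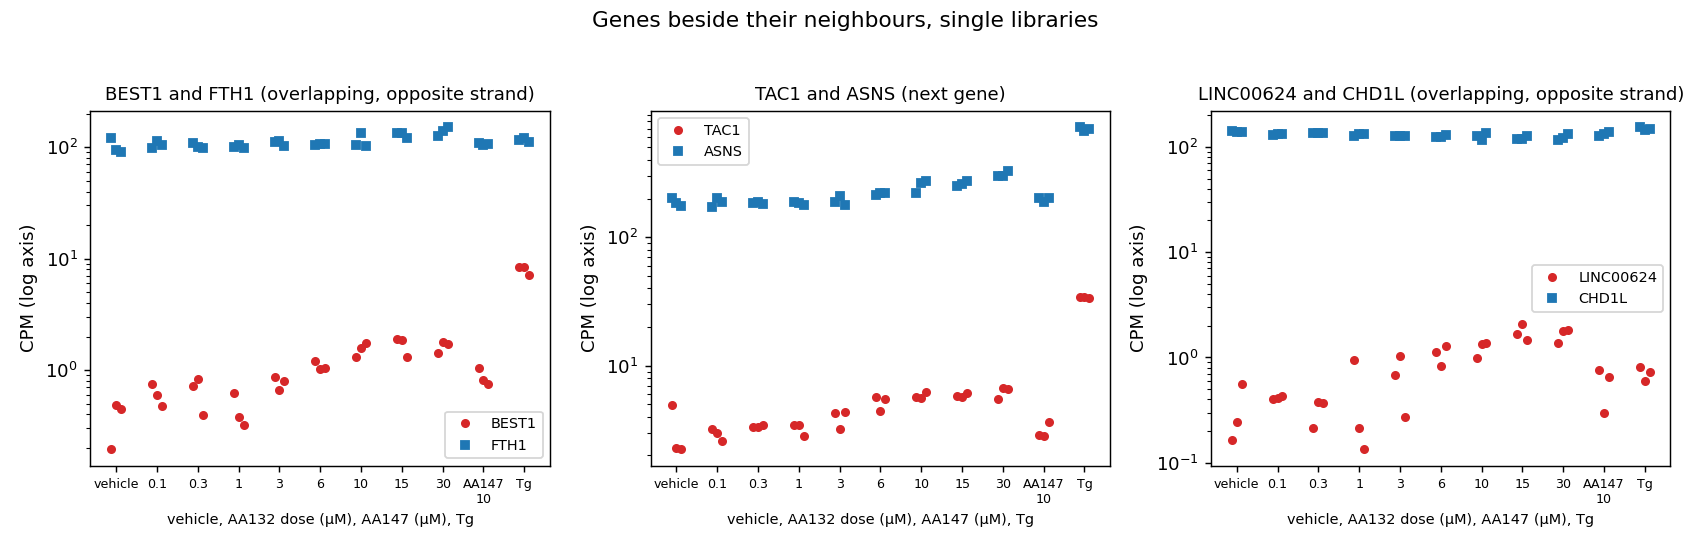
Levels in CPM (log axis) in every library, by condition, of BEST1 beside FTH1, TAC1 beside ASNS and LINC00624 beside CHD1L (the gene described in red circles, its neighbour in blue squares). FTH1 stays within 89.6 to 151 CPM and CHD1L within 116 to 154 CPM, while BEST1 spans 0.194 to 8.36 and LINC00624 0.134 to 2.07, and ASNS rises with TAC1 in Tg.

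Relatives of the 7 genes were listed with earlier results of these data known, and the lists include the 7 genes themselves. Against the background of 31.2% called under Tg and 10.8% with dose, no list is singled out here. Of 18 genes of vesicle priming and dense-core vesicle release tested, 7 rose and 2 fell under Tg against vehicle, median 0.24, with the whole table at 0.0048. Those that rose include CHGB (chromogranin B, 1.63 ± 0.10 CPM in vehicle and 3.93 ± 0.08 under Tg, log2 change 1.26, edgeR adjusted p = 2.20e-06), SCG2 (secretogranin II, 1.11, edgeR adjusted p = 0.0127), UNC13A (2.63, edgeR adjusted p = 2.99e-05), SYT4 (0 to 2 counts in vehicle, 35 to 40 under Tg) and CADPS2. The members that fell were STX1A and RAB27B. With AA132 dose 1 of 17 rose (SCG2, 0.46, edgeR adjusted p = 0.0471) and CADPS2 was the one that fell.

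Of 11 bestrophin and anoctamin genes tested, BEST1 and ANO8 (0.11, edgeR adjusted p = 0.0275) rose with AA132 dose and none fell, and under Tg BEST1 and ANO1 (1.26, edgeR adjusted p = 0.0107) rose and ANO10 (-0.52, edgeR adjusted p = 1.37e-05) fell. Under Tg these 3 of 11 are near the background of 31.2%. With dose, KCNK13 (0.28, edgeR adjusted p = 0.0459) rose among 7 potassium channels of the KCNK family tested. Of 8 tested under Tg, KCNK6 (1.67, edgeR adjusted p = 0.00058) and KCNK1 (0.28, edgeR adjusted p = 0.0137) rose and KCNK2 fell, 3 of 8, again near the background. Of 6 genes of tachykinin signalling and peptide processing tested, TAC1 rose and PAM (-0.21, edgeR adjusted p = 0.0119), the amidating enzyme, fell under Tg, 2 of 6. Among 11 PI3K subunits tested, PIK3C2B and PIK3R2 fell and PIK3CD rose with AA132 dose (-0.09, -0.08 and 0.19), and under Tg PIK3C2B, PIK3CD (-0.70, edgeR adjusted p = 0.00319), PIK3R2 and PIK3R4 fell and PIK3C2A rose. Of 10 genes of the FilGAP group, ARHGAP24 did not pass. FLNC rose with dose (0.16, edgeR adjusted p = 0.000561), and FLNA (-0.84, edgeR adjusted p = 7.36e-09) and CDC42 fell under Tg, 2 of 10, below the background share.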

How the data were processed

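RNA from 33 libraries of HEK293T cells (11 conditions, 3 numbered columns each) was analysed. The authors deposited expected counts per gene, not scaled between libraries; 3.22% of values were fractional, and 0.009, standing in place of 0, filled 43.5% of cells. The genome build GRCh38.p7 is named per the submitters' processing notes, and the aligner, counter, annotation and use of strand are not given in the sources used here. Every sample column was mapped to a condition (0 left out). Of 38074 entries, 98 under 45 repeated names were added together; 28 date-like names were kept apart. This left 38021 genes.

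Expected counts were rounded and tested with edgeR 4.0.16 (R 4.3.3): filterByExpr, TMM, the quasi-likelihood F-test and Benjamini-Hochberg adjustment over all genes tested (17793, or 16824 in the dose fit), called at an adjusted p under 0.05. CPM used TMM effective library sizes. SE is the absolute log2 change over the square root of F, and intervals are 2 SE. Scripts were tested on simulated data. DESeq2 1.42.0, no filter, DESeq2 size factors, other dose codings and leaving out libraries were the alternatives. Gene positions come from GENCODE 44 (GRCh38).

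The 7 genes and all gene lists were chosen with earlier results of these data known. Named beyond these are the stress reference genes, relatives that passed a test, overlapping or nearest genes, and up to 3 genes with the most alike condition means (at least 1 CPM on average). Nearest genes were sought only among annotated genes that are in the count table, so genes without an entry were passed over.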

Additional observations from a re-analysis of the deposited data

How the results depend on the processing

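Over the 4 comparisons, 870 results for single genes under alternatives kept direction and side of the threshold, 14 lost a call, 13 gained one and 5 changed sign, none of them a called result. Sign changes were ARHGAP24 under Tg against vehicle (-0.16 without Tg library 1, -0.069 without vehicle library 1 and -0.068 without the 3 libraries that stood apart) and KCNK2 under AA147 against low AA132 doses (0.03 without AA132 0.1 µM library 2 and 0.14 without AA147 library 3, in a range from -0.23). The alternatives that left out 3 libraries that stood apart, or 2 out of line with their dose, were chosen after seeing the data. The count of genes called in the dose relation was 1816. It was 817 without the 15 µM dose and 3310 with all 8 doses, and 1280 to 2066 when 1 library was left out. Tg against vehicle called 5551 genes, 3073 when only those conditions were fitted, and 4571 to 5832 with 1 library left out. Tg against low doses called 6839, with 5605 to 7619 under leaving out 1 library. AA147 against low doses called 7. It called 137 without the filter, 35 when only those conditions were fitted, 31 without the 2 libraries out of line with their dose and 44 by DESeq2, and 0 to 41 with 1 library left out. The 0 was without AA147 library 1, where edgeR had 738 genes at an unadjusted p under 0.05, and the 41 without vehicle library 1. The causes were not tested. PIK3C2B's slope did not pass without the filter (edgeR adjusted p = 0.0556) or the 15 µM dose (0.412). Column numbers did not pair the libraries: over 165 same-number pairs of columns, correlations of deviations ran from -0.15 to 0.18, and 14 of 33 columns matched best with their own number. A replicate block gave 9 genes for AA147 against low doses and changed no call among the 7 genes. Genes with few counts (BEST1, LINC00624, ARHGAP24 and KCNK2, 5 to 77 counts outside Tg) are limited by depth.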

Other observations

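CADPS2, ARHGAP24, LINC00624 and KCNK2 span more than 200 kb each. A span was found by symbol for 14143 of the 16824 genes in both fits, and the shares below are over these only. Among 1189 tested genes of at least 200 kb, 11.1% were called lower and 2.52% higher with AA132 dose, with a median slope of -0.03. Among 12954 shorter genes, 4.39% were lower and 7.27% higher, with a median slope of 0.0037. Under Tg against vehicle, 10.1% of the long genes were lower and 19.1% higher, against 17.6% and 17.3% of the shorter ones. Of the 4 genes, CADPS2 followed the more frequent direction of long genes in both comparisons, LINC00624 rose with dose, as 2.52% of long genes did, KCNK2 fell under Tg, as 10.1% did, and ARHGAP24 was called in neither. The part of gene length in these values was not tested.

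Around CADPS2, FEZF1 (7.72 kb away) did not pass in either comparison (slope 0.12, edgeR adjusted p = 0.732). FEZF1 held only 0.0814 to 0.601 CPM over all libraries, so this does not show that it was unchanged. Next to PIK3C2B, which fell under Tg, PPP1R15B on the same strand (10.7 kb away, a phosphatase subunit of the integrated stress response) rose under Tg by 0.37 (edgeR adjusted p = 0.00182) and MDM4 on the other strand rose by 0.62 (edgeR adjusted p = 0.00661). On either side of KCNK2, the nearest genes in the count table were CENPF and KCTD3, 341 and 330.2 kb away. Both had slopes of -0.08 (edgeR adjusted p = 0.0262 and 0.0135), and neither passed under Tg (edgeR adjusted p = 0.386 and 0.82).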
